A study of Homo sapiens with 14 samples.

Results

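The 7 genes described here encode connexins and pannexin 1, the proteins of gap junctions and of related membrane channels, and were followed in Hep3BTAp73β cells with and without induction of TAp73β. The members are GJA1, GJB1, GJB2, GJB5, GJA4, GJC1 and PANX1, which were taken by symbol from the annotation of the array. They are 7 of the 19775 genes with a probe set of their own, and were measured by 14 probe sets, 1 each for GJA1, GJB1, GJB2 and GJB5, 2 for GJA4 and 4 each for GJC1 and PANX1. Where several probe sets named a gene, the brightest on average was its main one. The genes were chosen by their Dox+ minus Dox− differences in these arrays, so their values are given as a description, without a test.

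Hep3BTAp73β is a human hepatocellular carcinoma line lacking p53 that carries a tetracycline repressor and a TAp73β cDNA under a repressible promoter. It was grown out from picked drug-resistant colonies, and whether the arrayed cells are 1 clone is not given in the sources used here. Dox+ cells received doxycycline at 1 µg/mL, and Dox− cells, which carry the same constructs, did not. Cultures labelled as biological replicates were arrayed on Affymetrix U133 Plus 2.0 chips after 12 h (2 Dox+, 2 Dox−), 24 h (2 Dox+, 2 Dox−) and 48 h (3 Dox+, 3 Dox−). Arrays of cells without the TAp73β construct were not analysed here, so the effects of doxycycline and of TAp73β cannot be told apart.

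Connexins are membrane proteins that assemble into hemichannels, and hemichannels of neighbouring cells dock to form gap junctions, through which ions and small metabolites pass directly between cells. Pannexin 1 forms channels of a similar shape that open to the outside of the cell and release ATP, which then acts on purinergic receptors. In liver, hepatocytes are coupled mainly by the GJB1 and GJB2 products, while GJA1 is better known in non-parenchymal cells and bile duct cells.

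GJA1 and GJB1 were the 2 members that were lower on every Dox+ array than on every Dox− array at each of the 3 times. Their promoter sequences are therefore shown, as the 250 bases before the RefSeq start in GRCh38.p14, read 5′ to 3′ on the strand of the gene. GJA1 lies on the plus strand with its window at chr6:121435396-121435645, and GJB1 on the plus strand with its window at chrX:71214989-71215238. Capitals mark a match to one of 5 motifs searched on both strands.
GJA1: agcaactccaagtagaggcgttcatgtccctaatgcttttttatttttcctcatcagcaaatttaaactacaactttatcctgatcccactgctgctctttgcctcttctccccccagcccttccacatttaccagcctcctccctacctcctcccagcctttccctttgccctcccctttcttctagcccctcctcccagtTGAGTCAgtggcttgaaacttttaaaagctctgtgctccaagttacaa
GJB1: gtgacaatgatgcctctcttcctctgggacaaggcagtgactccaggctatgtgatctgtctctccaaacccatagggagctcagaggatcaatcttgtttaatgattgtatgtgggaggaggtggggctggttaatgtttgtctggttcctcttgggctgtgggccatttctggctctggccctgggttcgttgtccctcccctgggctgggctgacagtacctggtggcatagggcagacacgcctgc
The motifs were AP-1 (TGANTCA), the GC box (GGGCGG), the TATA box (TATAAA), the TEAD motif (GGAATG) and a single p53 family decamer, which is named only and is one unit of the pair that makes a full site. GJA1 held 1 AP-1 match, whose first base lay 48 bases before the start, and AP-1 matches occurred in 6.57% of 35116 promoter windows of the same length. GJB1 held no match to the 5 motifs in this window. Promoters were in the table for 4 of the 7 members. Of the other 2, GJB2 had 3 GC boxes, found in 42.6% of windows, and PANX1 had 1 GC box and 1 TEAD motif, and the TEAD motif was found in 11.9%. No window of the 4 held the p53 family decamer, which occurred in 5.57% of windows, or the TATA box, which occurred in 10.7%. Matches did not overlap each other, and a match is a description of letters and not of binding.

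Induction and array quality set the frame for these values. TP73, the induced gene, was up in Dox+ cells, 3.70-fold in the 12 h arrays, 4.83-fold in the 24 h arrays and 3.89-fold in the 48 h arrays (limma, adjusted p = 0.00271, 1.03e-04 and 1.06e-07). These are values of its brightest probe set, and the others were higher by less. In order of time, the second brightest was up 1.34-fold, 1.70-fold and 1.65-fold, and the dimmest 1.63-fold, 1.76-fold and 2.25-fold. At 12 h TP73 did not pass without Dox− replicate 1 or by the methods' t-test, nor at 24 h by that test (adjusted p over the alternatives 1.69e-07 to 0.325 at 12 h and 9.64e-09 to 0.270 at 24 h). Array medians lay between 5.15 and 5.28 on the log2 scale. The spread between replicates, as the square root of the mean variance over genes, was 0.196 in Dox+ and 0.209 in Dox− arrays of 12 h, 0.15 in Dox+ and 0.184 in Dox− arrays of 24 h, and 0.111 in Dox+ and 0.105 in Dox− arrays of 48 h. The 3′ minus 5′ difference of the ACTB control probe sets, a measure of RNA and labelling quality, was 1.85 to 2.26 in Dox+ and 1.50 to 1.60 in Dox− arrays of 12 h, 1.35 to 1.45 in Dox+ and 0.81 to 0.95 in Dox− arrays of 24 h, and 0.79 to 1.03 in Dox+ and 0.86 to 0.89 in Dox− arrays of 48 h. That of GAPDH was 0.96 to 1.77 in Dox+ and 0.89 to 1.12 in Dox− arrays of 12 h, 0.91 to 1.00 in Dox+ and 0.43 to 0.49 in Dox− arrays of 24 h, and 0.37 to 0.52 in Dox+ and 0.41 to 0.49 in Dox− arrays of 48 h. The controls moved with doxycycline at 12 h for ACTB and at 24 h for both, the groups overlapped at 48 h, and the part of this difference in the member values at 12 h and 24 h was not tested.

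GJA1, which encodes the most widely expressed connexin, was the member with the largest difference. At 12 h its log2 level was 7.63 and 8.21 on the Dox+ arrays, against 8.66 and 9.24 on the Dox− arrays. At 24 h it was 6.60 and 6.72 on the Dox+ arrays, against 9.06 and 8.92 on the Dox− arrays. At 48 h it was 5.72, 5.81 and 5.52 on the Dox+ arrays, against 8.46, 8.66 and 8.43 on the Dox− arrays. Every Dox+ array was below every Dox− array at each time, by a gap of 0.45 at 12 h, 2.20 at 24 h and 2.62 at 48 h between the nearest arrays. The Dox+ minus Dox− difference was −1.03 ± 0.25 (SE, n = 2 each) at 12 h, −2.33 ± 0.13 (SE, n = 2 each) at 24 h and −2.83 ± 0.09 (SE, n = 3 each) at 48 h, with the SE taken from the limma fit of the arrays of that time. In linear terms GJA1 was lower in Dox+ cells by 2.05-fold after 12 h, 5.01-fold after 24 h and 7.13-fold after 48 h. Counted from the most negative difference of 19775 genes, its place was 23 after 12 h, 1 after 24 h and 2 after 48 h. In bulk cultures, fewer cells with the transcript and less transcript per cell cannot be told apart.

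The GJA1 level also changed with time within the Dox+ cells. Its mean there was 7.92, then 6.66, then 5.68, steps of −1.26 and −0.98, and the arrays of neighbouring times did not overlap. In Dox− cells the means were 8.95, 8.99 and 8.52, where 12 h and 24 h overlapped and the 48 h arrays lay 0.47 below those of 24 h in the mean without overlap. Ordered by mean, the 3 Dox− groups came first, then the Dox+ groups from the earliest to the latest, and each of the last 3 was separate from the group before it. The 6 group means spanned 3.30, the widest span of the members. The ACTB 3′ minus 5′ difference was also smaller at 48 h than at 12 h in both groups, and its part in the changes over time was not tested.

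**Figure D1:**
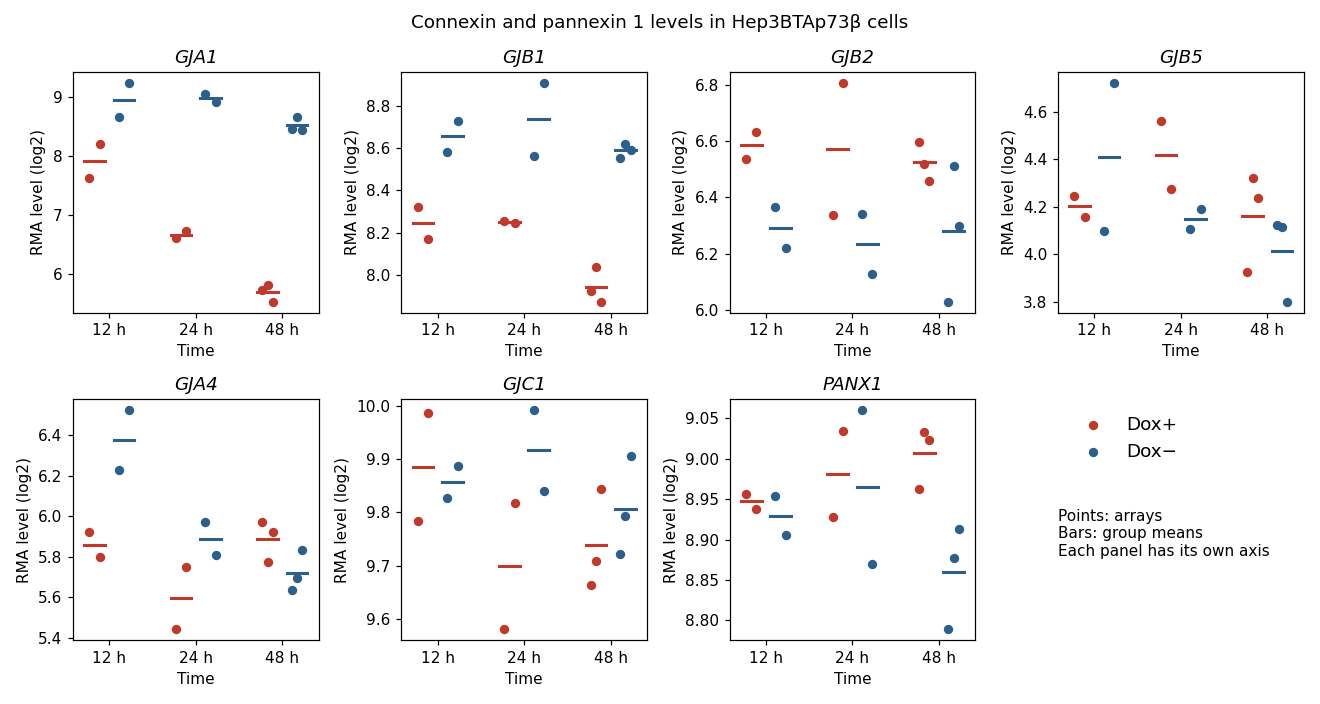
RMA levels (log2, vertical axis, one scale per panel) of the main probe set of each member by time (horizontal axis), with Dox+ arrays in red to the left of Dox− arrays in blue. Points are arrays and bars are group means; GJA1 reaches 5.52 to 5.81 on the Dox+ arrays at 48 h, against 8.43 to 8.66 on the Dox− arrays.

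GJB1, the main hepatocyte connexin, was also lower in Dox+ cells, by less. At 12 h its log2 level was 8.32 and 8.17 on the Dox+ arrays, against 8.58 and 8.73 on the Dox− arrays. At 24 h it was 8.26 and 8.25 on the Dox+ arrays, against 8.56 and 8.91 on the Dox− arrays. At 48 h it was 7.93, 8.04 and 7.88 on the Dox+ arrays, against 8.55, 8.62 and 8.59 on the Dox− arrays. The groups did not overlap at any time. The difference was −0.41 ± 0.15 (SE, n = 2 each) at 12 h, −0.48 ± 0.15 (SE, n = 2 each) at 24 h and −0.64 ± 0.06 (SE, n = 3 each) at 48 h, which is 1.33-fold, 1.40-fold and 1.56-fold lower. Within Dox+ cells the 48 h arrays lay below those of 12 h and 24 h (mean changes of −0.30 and −0.30), while the Dox− arrays of all 3 times overlapped.

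GJB2, the other connexin of hepatocytes, had the opposite sign. At 12 h its log2 level was 6.54 and 6.63 on the Dox+ arrays, against 6.36 and 6.22 on the Dox− arrays. At 24 h it was 6.34 and 6.81 on the Dox+ arrays, against 6.34 and 6.13 on the Dox− arrays. At 48 h it was 6.60, 6.52 and 6.46 on the Dox+ arrays, against 6.03, 6.51 and 6.30 on the Dox− arrays. The differences of 0.29 ± 0.15 at 12 h, 0.34 ± 0.18 at 24 h and 0.25 ± 0.11 at 48 h (SE, n = 2, 2 and 3 per group) were of similar size, but the arrays were separate at 12 h only. GJB2 averaged 6.41 over the 14 arrays, just under the 6.49 of the median gene, and its SD within a group reached 0.33, in the Dox+ arrays of 24 h.

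GJB5 and GJA4 were dim as well, with means of 4.20 and 5.88 over the 14 arrays. GJB5 encodes a connexin of keratinocytes, and its levels stayed between 3.80 and 4.72 on all arrays. Its differences were −0.21 ± 0.22, 0.27 ± 0.14 and 0.15 ± 0.12 in order of time (SE), and only at 24 h, with 4.56 and 4.27 on the Dox+ arrays against 4.11 and 4.19 on the Dox− arrays, did the groups not overlap. GJA4 encodes a connexin of endothelial cells. Its main probe set read 5.92 and 5.80 on the Dox+ arrays at 12 h, against 6.23 and 6.52 on the Dox− arrays. At 24 h it read 5.44 and 5.75 on the Dox+ arrays, against 5.97 and 5.81 on the Dox− arrays. At 48 h it read 5.97, 5.77 and 5.92 on the Dox+ arrays, against 5.63, 5.69 and 5.83 on the Dox− arrays, so that the sign turned between 24 h and 48 h. The differences were −0.52 ± 0.16, −0.29 ± 0.15 and 0.17 ± 0.08 (SE) in order of time, and the groups overlapped at 48 h. The second GJA4 probe set, with levels of 3.83 to 4.21, differed by −0.11, 0.10 and 0.02. It was higher at 24 h on both Dox+ arrays than on both Dox− arrays, opposite to the main one, and at 12 h and 48 h its groups overlapped.

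GJC1, whose product couples conducting cells of the heart, depended on the probe set read. The main one was bright and close to level, with 9.78 and 9.99 on the Dox+ arrays at 12 h, against 9.83 and 9.89 on the Dox− arrays. At 24 h it read 9.58 and 9.82 on the Dox+ arrays, against 9.99 and 9.84 on the Dox− arrays. At 48 h it read 9.66, 9.71 and 9.84 on the Dox+ arrays, against 9.72, 9.79 and 9.91 on the Dox− arrays. Its differences were 0.03 ± 0.15, −0.22 ± 0.14 and −0.07 ± 0.07 (SE), with separate arrays at 24 h only. At 24 h all 4 probe sets were lower on every Dox+ array than on every Dox− array, by −0.22 in the main one and by −0.82, −0.57 and −0.54 in the other probe sets, from the brightest to the dimmest. At 12 h and 48 h the arrays of all 4 overlapped, with differences between −0.74 and 0.03 at 12 h and between −0.25 and 0.05 at 48 h. The 24 h arrays are those on which both 3′ minus 5′ controls separated the groups. Whether the probe sets lie at different distances from the 3′ end was not analysed here.

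PANX1 was near equal in both groups in its brightest probe set. That probe set read 8.96 and 8.94 on the Dox+ arrays at 12 h, against 8.95 and 8.91 on the Dox− arrays. At 24 h it read 8.93 and 9.03 on the Dox+ arrays, against 9.06 and 8.87 on the Dox− arrays. At 48 h it read 8.96, 9.03 and 9.02 on the Dox+ arrays, against 8.79, 8.88 and 8.91 on the Dox− arrays. The differences were 0.02 ± 0.14, 0.02 ± 0.13 and 0.15 ± 0.06 (SE), and the groups were separate, by a gap of 0.05, at 48 h alone. The second brightest PANX1 probe set differed by 0.27, −0.06 and 0.27 in order of time, with separate arrays at each time, and its sign at 24 h was opposite to that at 12 h and 48 h. The third brightest differed by 0.36, −0.67 and 0.10, with separate arrays at 24 h only, and the dimmest by 0.08, −0.08 and −0.22 with overlap throughout. At 48 h, 2 of the 4 PANX1 probe sets were higher in Dox+ cells without overlap and none was lower.

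**Figure D2:**
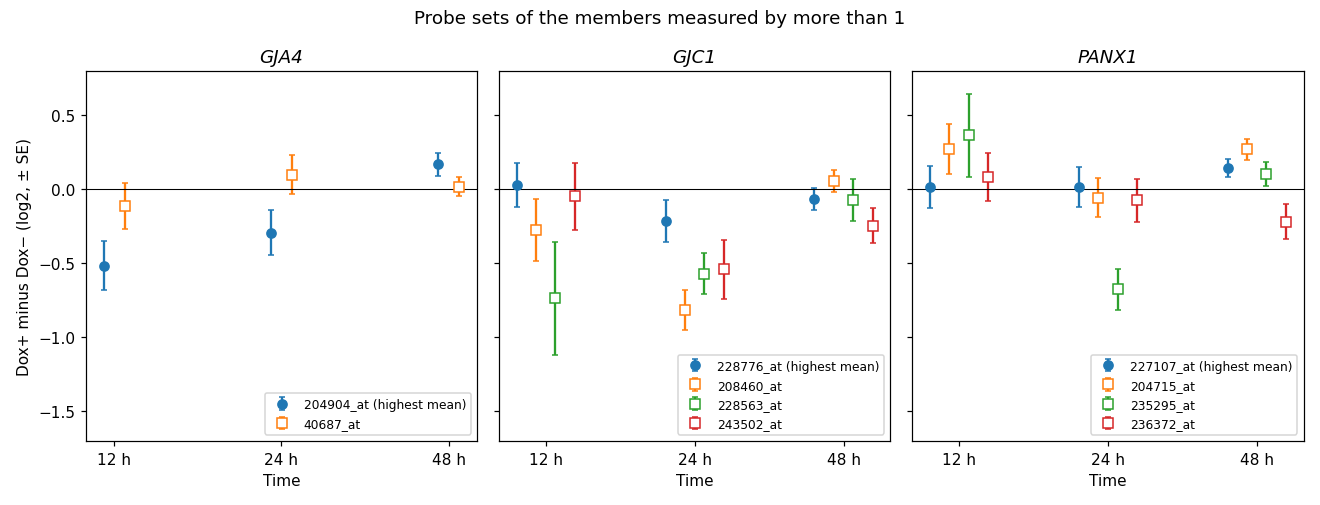
Dox+ minus Dox− difference (log2, vertical axis, bars are SE) of each probe set of GJA4, GJC1 and PANX1 by time (horizontal axis), with filled circles for the probe set of highest mean. At 24 h the 4 GJC1 probe sets lie between −0.82 and −0.22, and the third brightest PANX1 probe set lies at −0.67 while the other 3 stay near 0.

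Counted over main probe sets, 1 member was higher and 3 were lower without overlap at 12 h. At 24 h, 1 was higher and 4 were lower, and at 48 h 1 was higher and 2 were lower. The higher one was a different gene each time, GJB2, GJB5 and PANX1 in turn, while GJA4, in its main probe set, joined GJA1 and GJB1 among the lower ones at 12 h and 24 h and GJC1 at 24 h. Over all 19775 genes, 19.3% were higher and 27.6% lower without overlap at 12 h, 26.6% higher and 23.7% lower at 24 h, and 17.4% higher and 21.9% lower at 48 h. Since these contrasts were in view when the members were proposed, nothing is read from the counts. Without Dox+ replicate 3 the count at 48 h was 5 of 7, against 3 with all arrays.

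The other connexin and pannexin genes were mostly dim. Of 17 listed, 9 had a probe set of their own (GJA3, GJA5, GJA10, GJB6, GJD2, GJD3, GJD4, PANX2 and PANX3), and limma called 0 of the 9 at any time, with smallest adjusted p-values of 0.351, 0.340 and 0.373 in order of time. The methods' t-test also called 0, but it did not call the induced TP73 at 12 h or 24 h either. Nothing is read from its 0 at those times. Of the 9, 8 averaged 3.52 to 5.46 over the arrays, under the 6.49 of the median gene, where little room is left for a lower value. At an unadjusted p under 0.05, 1 was lower at 12 h (GJD4, −0.45), and 0 passed at 24 h or 48 h. Their differences lay between −0.45 and −0.02 at 12 h, between −0.21 and 0.28 at 24 h and between −0.11 and 0.10 at 48 h, with medians of −0.21, 0.17 and −0.0031, against medians over all genes of −0.04, 0.02 and −0.02. Of the 9, 7 were lower without overlap at 12 h, 3 were higher and 1 lower at 24 h, and 1 was lower at 48 h. Over all genes, 27.6% were lower without overlap at 12 h, 26.6% higher and 23.7% lower at 24 h, and 21.9% lower at 48 h. The ACTB control also separated the groups at 12 h and 24 h, and its part in the values of the 9 genes was not tested. The members were chosen by their differences, and these genes come from what was left of the family after that choice. The same values therefore shaped both sets, so their ranges are not compared and the 0 calls are not read as a result about the family.

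**Figure D3:**
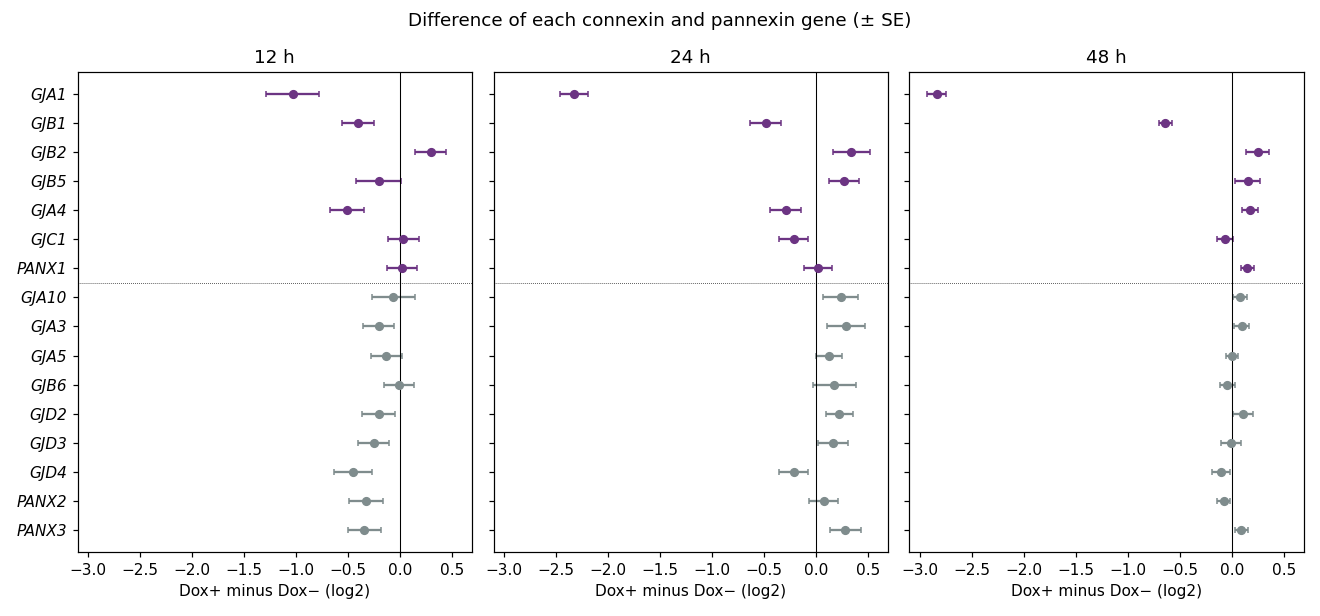
Dox+ minus Dox− difference (log2, horizontal axis, bars are SE), one panel per time, for the 7 members in purple and, under the dotted line, the 9 other family genes in grey. GJA1 lies at −1.03 at 12 h and −2.83 at 48 h, and the 9 other genes, 8 of them dim, lie between −0.11 and 0.10 at 48 h.

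The genes whose profile over the 14 arrays was most like that of GJA1 were sought by the root mean square difference of the levels, each gene centred on its own mean. GJA1 was the only member whose group means spanned at least 1. The nearest were LGR5 (0.393), SPINK1 (0.568), PAPSS2 (0.586), VSIG1 (0.586) and TMEM158 (0.708), against a root mean square of 1.29 for GJA1 itself. LGR5, an R-spondin receptor, averaged 8.04 in Dox+ and 8.97 in Dox− cells after 12 h, 7.32 in Dox+ and 9.18 in Dox− cells after 24 h, and 6.48 in Dox+ and 8.82 in Dox− cells after 48 h. SPINK1, a secreted trypsin inhibitor, averaged 9.09 in Dox+ and 9.30 in Dox− cells after 12 h, 8.11 in Dox+ and 9.20 in Dox− cells after 24 h, and 5.86 in Dox+ and 8.77 in Dox− cells after 48 h. PAPSS2, which makes the sulfate donor of sulfotransferases, averaged 6.79 in Dox+ and 8.22 in Dox− cells at 48 h. All 5 were lower in Dox+ cells at each time and share these arrays with GJA1, so the likeness is a description.

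**Figure D4:**
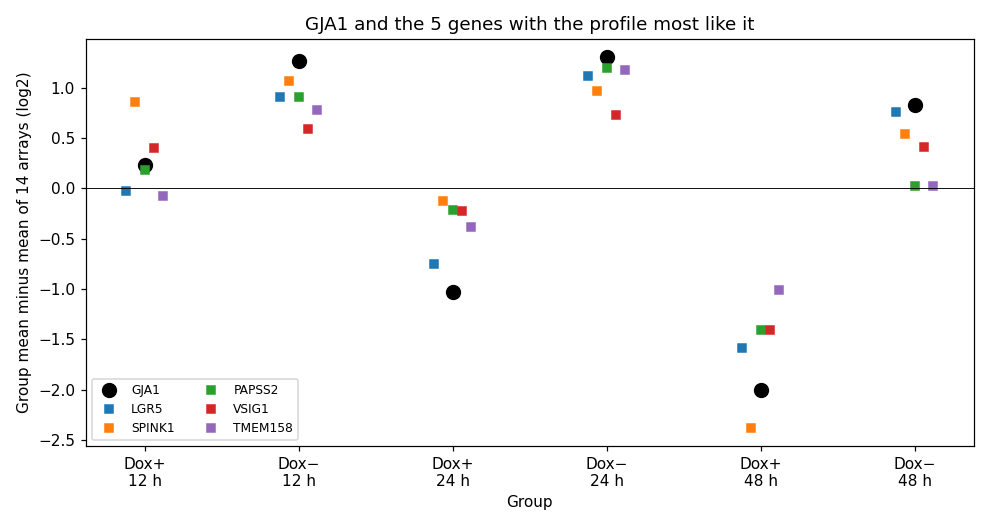
Group means (log2, vertical axis, minus each gene's mean over 14 arrays) of GJA1 in black and of the 5 genes with the nearest profile, for Dox+ and Dox− at each time (horizontal axis). All 6 genes are lowest in Dox+ cells at 48 h.

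Genes that act with connexins were described from 4 further lists, against a background of calls over all genes of 0.647% higher and 0.0202% lower at 12 h, 3.01% higher and 2.81% lower at 24 h, and 11.3% higher and 12.9% lower at 48 h (limma, adjusted p under 0.05). The lists were chosen with earlier results of these data known, and the named genes by their difference at 48 h. Their counts and p-values are therefore a description and not independent support. Junction scaffold and adhesion genes, which hold cells together where gap junctions form, had 0 of 17 called at 12 h, 1 higher and 1 lower at 24 h, and 6 higher and 1 lower at 48 h, with a median difference at 48 h of 0.11 against −0.02 over all genes. At 12 h, 3 of the 17 had an unadjusted p under 0.05, and the methods' t-test called 0 of the genes of each list. That test did not call the induced TP73 at 12 h either, so nothing is read from its 0. CDH1, the epithelial cadherin, averaged 11.93 in Dox+ and 11.16 in Dox− cells at 48 h, a difference of 0.77 ± 0.06 (SE, limma adjusted p = 2.33e-05). The tight junction protein gene CLDN1 rose by 0.77 ± 0.06 (adjusted p = 1.68e-05) and ANK3, which encodes the membrane scaffold ankyrin-G, by 0.71 ± 0.06 (adjusted p = 5.95e-05), with 2 of its 4 other probe sets past the test. CDH2, the neural cadherin, was the called gene that fell, with 7.20 in Dox+ and 7.83 in Dox− cells (−0.63 ± 0.06, adjusted p = 8.25e-05). The 24 h count of 2 became 0 without Dox− replicate 2 and 1 without any of the other 3 arrays.

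The connexin trafficking, kinase and turnover list holds genes that carry, phosphorylate or degrade connexins. Of its 29 measured genes, 0 were called at 12 h (3 at an unadjusted p under 0.05), 1 rose and 3 fell at 24 h, and 3 rose and 4 fell at 48 h, with a median difference at 48 h of −0.04. PRKCE, a protein kinase C, averaged 7.78 in Dox+ and 7.10 in Dox− cells at 48 h (0.68 ± 0.09, adjusted p = 6.81e-04), but its 3 other probe sets did not pass (0.23, −0.09 and 0.20). SRC, a tyrosine kinase that phosphorylates the GJA1 product, rose by 0.39 ± 0.07 (adjusted p = 0.00262) in its brightest probe set, while its other probe sets did not pass, nor did it in 1 fit of all 14 arrays (range over 15 alternatives 6.10e-04 to 0.0774). UBQLN4, a ubiquilin that links the GJA1 product to the proteasome, averaged 9.73 in Dox+ and 10.09 in Dox− cells (−0.37 ± 0.06, adjusted p = 0.00163), and its second probe set differed by 0.01. DAB2, an endocytic clathrin adaptor, differed by −0.32 ± 0.08 (adjusted p = 0.0136), and did not pass in 5 of 15 alternatives, among them those without Dox+ replicate 1, Dox+ replicate 2 or Dox− replicate 3 (range of adjusted p over the alternatives 0.00118 to 0.0745), while 2 of its 6 other probe sets passed. The 24 h count of 4 was 1 without Dox+ replicate 1 or Dox− replicate 2 and 2 without either other array, and the 48 h count of 7 was 4 without Dox+ replicate 1 or 2.

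The ATP release and purinergic list covers what lies downstream of a pannexin channel. Of its 11 measured genes 1 rose at 12 h, 2 at 24 h and 3 at 48 h, and 0 fell. P2RY2, a receptor for ATP and UTP, averaged 8.22 in Dox+ and 6.70 in Dox− cells after 12 h, 8.43 in Dox+ and 6.82 in Dox− cells after 24 h, and 8.30 in Dox+ and 6.54 in Dox− cells after 48 h, differences of 1.52 ± 0.19, 1.62 ± 0.13 and 1.76 ± 0.09 (SE, limma adjusted p = 0.0180, 2.92e-04 and 1.95e-06). ADORA2B, a receptor for adenosine, differed by 0.85 ± 0.21, 0.56 ± 0.14 and 1.40 ± 0.10 in order of time (adjusted p = 0.175, 0.0456 and 1.26e-05). P2RX4, an ATP-gated channel, was higher by 0.31 ± 0.10 at 48 h with an adjusted p of 0.0464, and did not pass in 10 of 14 alternatives, leaving out any Dox+ replicate or Dox− replicate 1 or 3 among them (range 0.0116 to 0.203). The 12 h count of 1 was 0 without Dox− replicate 1 or 2 and 2 without Dox+ replicate 1, and the 24 h count of 2 was 1 without any one array. The list's median difference at 48 h was 0.07.

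**Figure D5:**
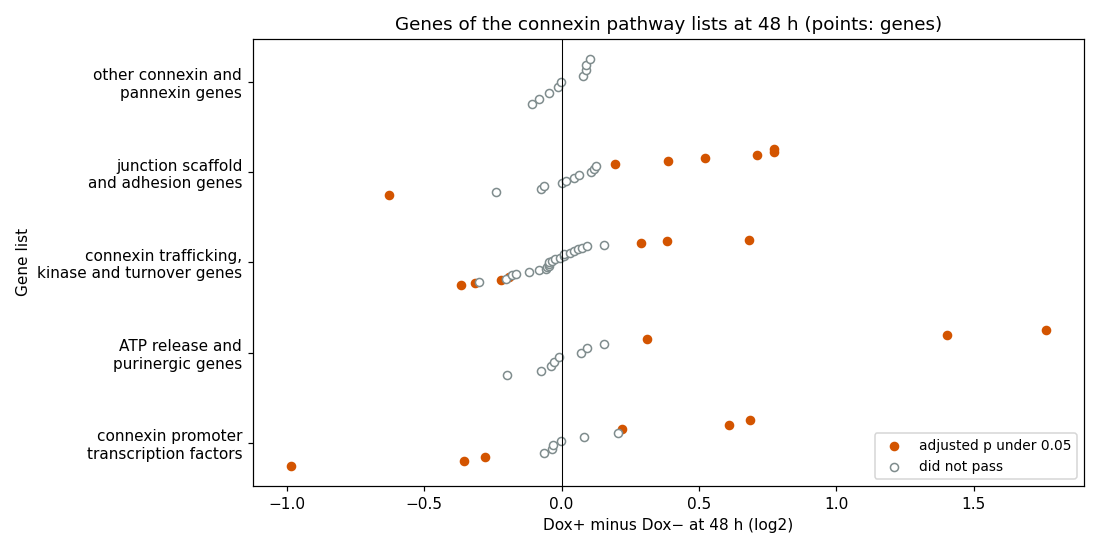
Dox+ minus Dox− difference at 48 h (log2, horizontal axis) of each measured gene of 5 lists (rows), with filled points for genes past the limma test at an adjusted p of 0.05 and open points for the rest. P2RY2 at 1.76 and ADORA2B at 1.40 are the highest, BHLHA15 at −0.99 the lowest, and no other connexin or pannexin gene is filled.

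Transcription factors known to act on connexin promoters made the last list. Of 12 measured, 0 were called at 12 h (2 at an unadjusted p under 0.05), 1 fell at 24 h, and 3 rose and 3 fell at 48 h, with a median difference of −0.02. BHLHA15, which drives the GJB1 orthologue in mouse exocrine cells, averaged 7.33 in Dox+ and 8.31 in Dox− cells at 48 h (−0.99 ± 0.08, adjusted p = 3.05e-05). TFAP2A, an AP-2 factor, rose by 0.69 ± 0.07 (adjusted p = 1.23e-04) in its brightest probe set, but not in its other probe sets (0.05 and −0.07), and FOS, a subunit of AP-1, was higher by 0.61 ± 0.06 (adjusted p = 1.31e-04) at 48 h, a call lost in 1 fit of all 14 arrays (range 1.73e-06 to 0.0627). TBX2, a T-box repressor, differed by −0.36 ± 0.08 (adjusted p = 0.00872), and did not pass with the probe set of largest interquartile range or by the methods' t-test (range over 15 alternatives 0.00266 to 0.0975), nor did its 3 other probe sets. FOS at 24 h had the opposite sign, with 5.49 in Dox+ and 6.70 in Dox− cells (−1.22 ± 0.14, adjusted p = 0.00201).

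Markers of hepatocytes, endothelial cells, leukocytes, fibroblasts and stellate cells, and keratinocytes were read beside the members. Markers of bile duct cells and of conducting cells of the heart were not read. Of 8 hepatocyte markers, 1 was higher and 5 were lower at 48 h, with summed log2 levels of 91.1 to 91.8 on the Dox+ arrays and 93.7 to 94.2 on the Dox− arrays. ALB averaged 14.37 in Dox+ and 14.38 in Dox− cells and was the 4th brightest gene of the array, where a change may go unseen. Of the markers of other cell types, 0 of 6 endothelial, 1 of 5 leukocyte, 2 of 6 fibroblast and stellate and 1 of 6 keratinocyte genes were called at 48 h. The leukocyte call was LYZ, which was lower, with 10.94 in Dox+ and 11.87 in Dox− cells (−0.92), and the other calls were higher. Over all genes, 11.3% were called higher and 12.9% lower at 48 h. The summed log2 levels of these markers were 29.2 to 29.6 in Dox+ and 28.9 to 29.4 in Dox− cells for endothelial markers, and 32.4 to 32.7 in Dox+ and 32.3 to 33.4 in Dox− cells for leukocyte markers. They were 38.0 to 38.8 in Dox+ and 36.8 to 37.5 in Dox− cells for fibroblast and stellate markers, and 25.7 to 26.7 in Dox+ and about 26.1 in all Dox− cells for keratinocyte markers. The hepatocyte and the fibroblast and stellate sums separated the groups and the others overlapped. In the fibroblast and stellate list the higher sum came mainly with LUM (1.23) and DCN (0.20), while COL1A1, COL1A2, COL3A1 and PDGFRB differed by −0.04, −0.10, −0.02 and −0.21 and the list's median was −0.03. The part of these markers in the connexin values was not tested.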

How the data were processed

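Expression was measured in Hep3BTAp73β cells on 14 arrays. The authors processed the scans by RMA (R 3.5.1 in the processing notes, BRB-ArrayTools in the methods) and excluded outlier arrays, and deposited log2 values, which were used as they stand. Of 54675 probe sets, 41091 name 1 gene in the platform annotation, 1801 several and 11721 none, and 62 are controls. The lists and members were chosen with earlier results of these data known. Named list genes are up to 4 per list with the largest difference at 48 h past the test. Dox+ and Dox− arrays of a time point were compared by limma 3.58.1 in R 4.3.3 (lmFit, eBayes, two-sided, Benjamini-Hochberg over 19775 genes, threshold 0.05), in the arrays of that time only; members got means, SEs and array overlap. The script was tested on simulated data. Alternatives were quantile normalization, other probe set choices, dim genes (mean under that of the median gene) or _x_at probe sets left out, trend and robust eBayes, the methods' t-test, 1 fit of 14 arrays, the replicate number as a block and each array left out. Promoters and symbols came from RefSeq (GRCh38.p14). Python 3.11.15, pandas 2.3.3, numpy 2.4.6 and matplotlib 3.10.9 made tables and figures. Precision is limited by the number of arrays.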

Additional observations from a re-analysis of the deposited data

Results flagged for a closer look

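The effect of doxycycline on FOS differed between times by the test of the difference itself. FOS averaged 5.49 in Dox+ and 6.70 in Dox− cells at 24 h, and 8.68 in Dox+ and 8.07 in Dox− cells at 48 h, so that the effect at 48 h minus that at 24 h was 1.83 on the log2 scale (limma interaction in 1 fit of 14 arrays, adjusted p = 0.0187, and 0.00226 with array weights per time). FOS was below its Dox− arrays in 2 of 2 Dox+ arrays at 24 h and above them in 3 of 3 at 48 h. Over all genes, 23.7% were lower without overlap at 24 h and 17.4% higher at 48 h. FOS was also brighter in both groups at 48 h than at 24 h. It had no other probe set, and in the same fit of 14 arrays its effect at 48 h alone did not pass (limma, adjusted p = 0.0627). Both 3′ minus 5′ controls separated the groups at 24 h, and their part in the FOS values was not tested.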

How the results depend on the processing

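Of 182 alternative values of the members' differences, 177 moved by less than the spread between replicates and 5 by more, none of them in GJA1 or GJB1. Most of these values could not move by more. Leaving out 1 array shifts a difference by less than that spread, and the replicate block leaves it unchanged. No member had an _x_at probe set, and the largest interquartile range picked another probe set for GJC1 and PANX1 only. GJA1 and GJB1, with 1 probe set each, could move under quantile normalization alone, so the 177 does not measure stability. With the probe set of largest interquartile range, GJC1 differed by −0.25 at 48 h and −0.54 at 24 h, and PANX1 by 0.36 at 12 h and −0.67 at 24 h. Of 112 alternative values of the members' changes over time, 93 moved by less than the spread, 18 by more and 1 turned its sign. The GJA1 change over 12 h to 48 h within Dox+ cells, −2.23 with all arrays, ranged over −2.52 to −1.95 as each array was left out. Under quantile normalization the PANX1 change over 12 h to 48 h within Dox+ cells was −0.024, against 0.06 in the deposited values. The members separate at 48 h numbered 3 to 5 when each array was left out.

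List counts moved by over 1.5 times in 44 of 207 cases, and the cause was not tested. In 1 fit of all 14 arrays the counts at 12 h were 2 for junction, 3 for trafficking, 4 for ATP and 3 for transcription factor genes, at 24 h 5 for junction, 7 for trafficking and 2 for transcription factor genes, and at 48 h 3 for trafficking and 3 for transcription factor genes. The methods' t-test called 0 in each of the 4 lists at 24 h and 0 ATP genes at 12 h, times at which it did not call TP73 either. With the probe set of largest interquartile range 5 junction and 3 transcription factor genes were called at 24 h, and 3 transcription factor genes at 48 h. Testing every probe set gave 6 junction and 3 transcription factor genes at 24 h and 0 ATP genes at 12 h. Trend and robust eBayes gave 5 junction and 7 trafficking genes at 24 h, quantile normalization 2 trafficking genes and leaving out dim genes 2 transcription factor genes. With each array left out, junction genes called at 24 h ranged over 0 to 1, trafficking genes over 1 to 2 at 24 h and 4 to 7 at 48 h, and ATP genes over 0 to 2 at 12 h, and ATP genes at 24 h were 1 each time.

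Replicate numbers were not taken as pairs. The deviations of same-numbered arrays correlated at 0.255 at 12 h, −0.110 at 24 h and 0.109, 0.0892 and 0.102 at 48 h, where each array correlated best with its own number. The replicate block gave 1 junction, 1 trafficking and 3 ATP genes at 12 h and left the other counts within 1.5 times.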
